A study of Mus musculus with 2 samples.

Results

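The genes described here carry out the capture, breakdown, storage and export of haem and iron. They are Cd163, Hmox1, Blvra, Blvrb, Fth1, Ftl1, Slc40a1, Slc11a1 and Tfrc, 9 of the 33696 genes in the count matrices, chosen by symbol and by function. The rule that lists them uses no measured value, though the list was drawn up with earlier results of these data known, and all 9 symbols were found. Ulcerated skin of mice with ulcerative dermatitis was dissociated into single cells and profiled by droplet RNA sequencing from the 5′ end of transcripts, which counts molecules as unique molecular identifiers (UMIs). There was 1 library labelled TG, with whole-body Has2 overexpression (Has2 encodes a hyaluronan synthase), and 1 library of wild-type mice. The skin of both genotypes had been tape-stripped 40 to 50 times a day for 15 days as a stand-in for scratching. The number, age and sex of the animals behind each library and the promoter of the transgene are not given in the sources used here, and the labels name the molecule as polyA RNA for the TG-labelled library and total RNA for the wild-type library.

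After filtering, 14415 cells of the TG-labelled library and 16837 wild-type cells remained, with medians of 4485 and 4348 UMIs per cell, and the libraries shared 79 cell barcodes. Has2 stood at 85.8 CPM (UMIs of the gene per 1000000 UMIs) in the TG-labelled library and 71.5 CPM in the wild-type library, a ratio of 1.201 (95% interval 1.17 to 1.23). Among fibroblasts, which held the highest Has2 level, the order was turned, at 144 CPM in TG-labelled and 176 CPM in wild-type cells, so the genotype is given as labelled throughout. Haemoglobin transcripts, the trace of red cells, came to 254 CPM in the TG-labelled library and 182 CPM in the wild-type library. With 1 library per genotype there is no replicate check and no test: every interval below covers counting error only, and genotype cannot be told apart from animal, dissection or library.

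Cells were assigned to classes by marker panels that contain none of the 9 genes. Neutrophils numbered 5542 in the TG-labelled library and 6851 in the wild-type library, macrophages or monocytes 4300 and 4996, fibroblasts 2652 and 2448, endothelial cells 241 and 254, and T cells 132 and 229. Median depth was 2087 UMIs per TG-labelled neutrophil and 3106 per wild-type neutrophil, and 24390 UMIs per TG-labelled fibroblast and 18550 per wild-type fibroblast. These 5 classes had at least 100 cells in each library and were compared. A level is the sum of a gene's UMIs in a class as CPM of all UMIs of that class, and a ratio is the TG-labelled level over the wild-type level.

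Haem released from dying red cells or from the cell's own proteins is toxic in free form. Macrophages take up haemoglobin bound to haptoglobin through the receptor CD163. Haem oxygenase 1, encoded by Hmox1, opens the haem ring to biliverdin, carbon monoxide and iron, and the biliverdin reductases (Blvra, Blvrb) turn biliverdin into bilirubin. The iron is stored in ferritin, a shell of heavy (Fth1) and light (Ftl1) chains, or leaves the cell through ferroportin (Slc40a1), the only known iron exporter of mammals. Transferrin receptor 1 (Tfrc) brings iron in from the blood carrier transferrin, and NRAMP1 (Slc11a1) moves metal ions out of the phagosomes of myeloid cells.

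Several of these transcripts carry an iron-responsive element, a hairpin that iron regulatory proteins bind when iron is scarce. In a 5′ untranslated region (UTR) the bound hairpin blocks translation, and in the 3′ UTR of Tfrc it protects the transcript from decay. The elements are shown because their place sets whether binding acts on translation, which a UMI count does not see, or on transcript stability. Whether iron acted on these transcripts here was not tested. They were searched in the GENCODE M21 transcripts of the GRCm38 build as C, 5 bases and CAGTGN (CNNNNNCAGTGN), with the 5 bases before the loop pairing the 5 after it. Only the transcript strand was searched, and the capitals below mark the loop.
Fth1 5′ UTR, chromosome 19: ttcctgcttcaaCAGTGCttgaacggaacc
Ftl1 5′ UTR, chromosome 7: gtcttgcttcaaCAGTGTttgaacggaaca
Slc40a1 5′ UTR, chromosome 1: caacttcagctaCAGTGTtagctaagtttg
Tfrc 3′ UTR, chromosome 16: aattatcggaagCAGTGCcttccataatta
Tfrc 3′ UTR, chromosome 16: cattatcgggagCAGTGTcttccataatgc
Tfrc 3′ UTR, chromosome 16: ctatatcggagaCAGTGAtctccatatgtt
Tfrc 3′ UTR, chromosome 16: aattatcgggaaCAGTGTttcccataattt

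A 5′ UTR match was found in 3 of the 9 genes, against 31 of 20899 annotated genes (0.148%), and a 3′ UTR match in 1 of the 9, against 129 of 21022 (0.614%). The Fth1 and Ftl1 elements have the same 5 bases on either side of the loop, while the Slc40a1 element has other arms. A match describes the letters only, and no match says only that this pattern is not in the annotated UTR.

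The plot of levels by class shows how unlike each other the 9 genes are in where they lie. Cd163, Blvra, Blvrb, Hmox1 and Ftl1 were highest in macrophages or monocytes in both libraries. Slc40a1, Slc11a1 and Fth1 were highest in neutrophils. Tfrc alone changed its leading class between the libraries: macrophages or monocytes in the TG-labelled library and fibroblasts in the wild-type library.

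**Figure D1:**
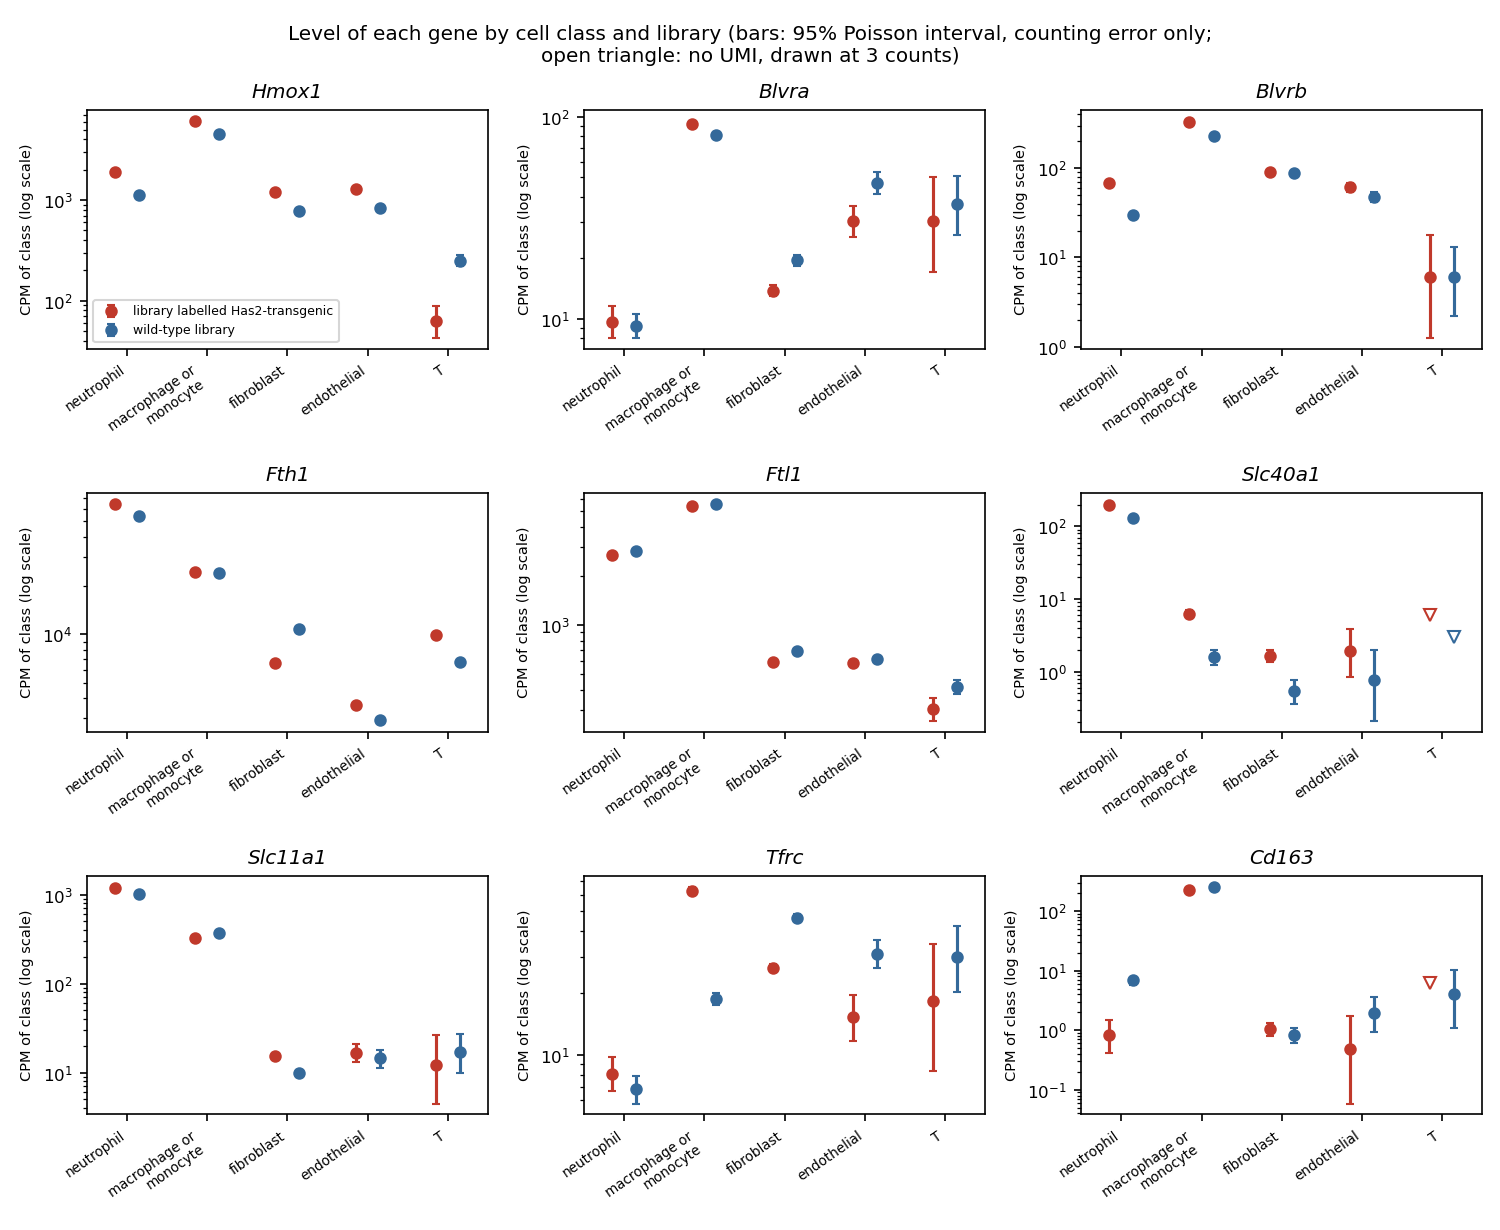
Level of each gene (y axis, CPM of the class, log scale) in 5 cell classes (x axis) of the TG-labelled library (red, left) and the wild-type library (blue, right), with 95% Poisson intervals that cover counting error only. Slc40a1 stands at 196 CPM in TG-labelled and 131 CPM in wild-type neutrophils and under 10 CPM in every other class, and Tfrc stands at 63.0 CPM in TG-labelled and 18.7 CPM in wild-type macrophages or monocytes.

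In all, 37 gene-by-class ratios had at least 100 UMIs over both libraries, and 14 of them were at least 1.5-fold from 1. Among macrophages or monocytes 2 of the 9 genes were past this fold, both higher in TG-labelled cells. There 16.5% of 11286 measured genes were past it in either direction, and 76.3% of those calls were higher. Among neutrophils 3 of 9 were past it, 2 higher and 1 lower, against 19.6% of 8320 genes. That background was 41.9% higher calls, and 56.6% when the median ratio of all genes was set to 1. Among fibroblasts 5 of 9 were past it, 3 higher and 2 lower, against 20.8% of 13336 genes, with 66.4% of that background higher. Endothelial cells had 3 of 7 measured genes past it, 1 higher and 2 lower, against 13.4% of 8170 genes, with 65.3% of that background higher. T cells had 1 of 3, lower, against 14.6% of 2827 genes, with 45.2% of that background higher and 56.8% after the same centring. The median log2 ratio of the measured genes of the 9 was 0.25 in neutrophils, 0.18 in macrophages or monocytes, 0.01 in fibroblasts, 0.21 in endothelial cells and −0.45 in T cells. Over all measured genes it was −0.09, 0.05, −0.05, −0.02 and −0.06 in the same classes.

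**Figure D2:**
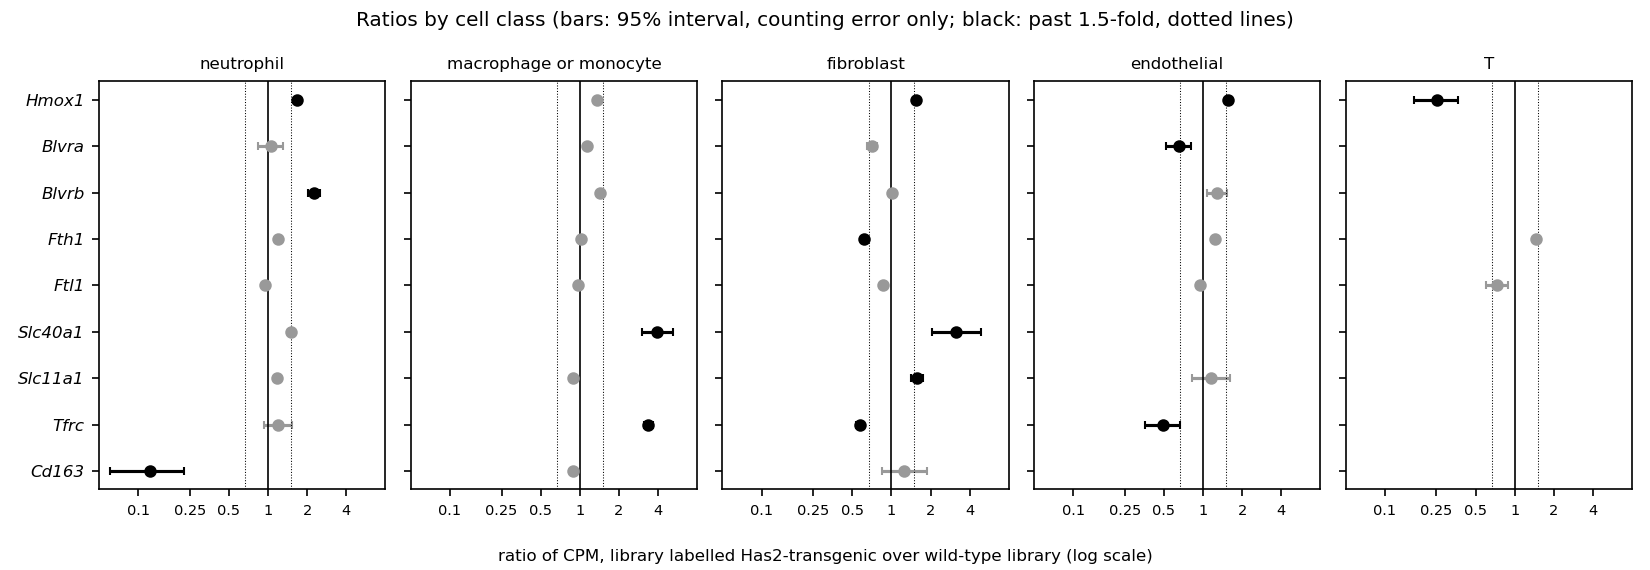
Ratio of CPM, TG-labelled over wild type (x axis, log scale), of each gene in 5 cell classes, with 95% intervals that cover counting error only; black points are past 1.5-fold (dotted lines), and genes with under 100 UMIs have no point. Hmox1 lies right of 1 in neutrophils, macrophages or monocytes, fibroblasts and endothelial cells, and Tfrc lies right of 1 in macrophages or monocytes and left of 1 in fibroblasts and endothelial cells.

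Cd163, the receptor for haptoglobin-haemoglobin complexes, was a gene of macrophages in both libraries, and within them of the cells with Folr2 and Mrc1. Macrophages or monocytes held 96.0% of its UMIs in the TG-labelled library and 93.4% in the wild-type library. Its level there was 222 CPM in TG-labelled cells (7957 UMIs) and 249 CPM in wild-type cells (11017 UMIs), a ratio of 0.892 (0.867 to 0.919). The 2 levels were within 1.5-fold. A Cd163 UMI was found in 19.5% of TG-labelled and 23.1% of wild-type macrophages or monocytes, and in 10.4% and 12.7% after each cell was thinned to 1000 UMIs. T cells, which should lack the receptor, gave 0 of 130 thinned TG-labelled cells, which allows a share of up to 2.31%, and 0 of 227 thinned wild-type cells, which allows up to 1.32%. Without thinning, 0.873% of wild-type T cells had a UMI. Median depth before thinning was 7256 UMIs in TG-labelled and 8445 in wild-type macrophages or monocytes, against 3243 and 3855 in T cells.

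Cells of the class were split further by the highest-scoring of 5 marker gates. The Folr2/Mrc1 gate, with markers of tissue-resident macrophages, held 1173 TG-labelled and 1643 wild-type cells and 88.7% and 87.7% of the Cd163 UMIs of the class. Within it the Cd163 level was 624 CPM in TG-labelled and 683 CPM in wild-type cells, a ratio of 0.912 (0.885 to 0.941). The monocyte gate, Ly6c2/Chil3, had 13.96 CPM in TG-labelled and 24.1 CPM in wild-type cells. Cd163 thus had its highest level in the same gate in each library, and its level in that gate differed by less than 1.5-fold. Of the markers of the Folr2/Mrc1 gate, Pf4 was lower in TG-labelled cells, at 6528 CPM against 14703 CPM in wild-type cells. The others were higher, from Mrc1 at 2313 and 2184 CPM to Lyve1 at 362 and 185 CPM. Ratios in this gate therefore compare cells that differ in part.

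Outside macrophages Cd163 was sparse. Neutrophils had 11 UMIs in the TG-labelled library (0.841 CPM) and 165 in the wild-type library (6.82 CPM), a ratio of 0.123 (0.0604 to 0.226). The wild-type UMIs lay in 0.759% of cells, with up to 19 in a single cell, and the TG-labelled UMIs in 0.126% of cells. After thinning the ratio was 0.395, from 6 TG-labelled and 15 wild-type cells with a UMI. Per 1000 UMIs of the macrophage panel, neutrophils held 2.43 Cd163 UMIs in the TG-labelled and 18.9 in the wild-type library, where macrophages or monocytes held 15.5 and 35.2. The part of macrophage RNA in this ratio was not tested. Fibroblasts had 69 UMIs in the TG-labelled and 45 in the wild-type library, of which a single cell held 29.0% and 62.2%, a ratio of 1.253 (0.849 to 1.87). Endothelial cells and T cells had too few to compare.

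Hmox1, which opens the haem ring, was higher in the TG-labelled library in the 4 large classes. Macrophages or monocytes held 61.7% of its UMIs in the TG-labelled library and 67.3% in the wild-type library, at 6040 CPM in TG-labelled and 4475 CPM in wild-type cells, a ratio of 1.35 (1.34 to 1.36). The median cell had 34 UMIs in the TG-labelled library and 25 in the wild-type library. The class level therefore rests on most of its cells and not on a few.

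In neutrophils Hmox1 stood at 1892 CPM in TG-labelled and 1126 CPM in wild-type cells, a ratio of 1.68 (1.65 to 1.71). In fibroblasts it stood at 1209 CPM in TG-labelled and 778 CPM in wild-type cells, a ratio of 1.55 (1.54 to 1.57). Endothelial cells had 1282 CPM in the TG-labelled library and 824 CPM in the wild-type library, also a ratio of 1.55 (1.49 to 1.62). All 3 ratios were past 1.5-fold and in the same direction. The order of the classes was the same in each library, macrophages or monocytes, neutrophils, endothelial cells, fibroblasts and T cells, with no overlap between the intervals of neighbours. In neutrophils the UMIs were unevenly spread: the tenth of cells with the most held 62.5% of them in the TG-labelled library and 64.6% in the wild-type library, and the median cell had 1 UMI in each.

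T cells gave the opposite order, at 63.0 CPM in TG-labelled cells (31 UMIs) and 250 CPM in wild-type cells (251 UMIs). A single wild-type barcode held 89.2% of the wild-type UMIs. Without the top cell of each library the levels were 38.8 CPM in TG-labelled and 28.4 CPM in wild-type T cells, and the ratio turned from 0.252 to 1.37.

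Within macrophages or monocytes the Hmox1 difference was unevenly spread over the gates. The Ly6c2/Chil3 monocyte gate had 7428 CPM in TG-labelled and 3290 CPM in wild-type cells, a ratio of 2.26 (2.22 to 2.29). The MHC class II gate had 6278 CPM in TG-labelled and 3256 CPM in wild-type cells, a ratio of 1.93. The Folr2/Mrc1 gate, with the highest wild-type level, had 7216 CPM in TG-labelled and 6089 CPM in wild-type cells, a ratio of 1.19. Wild-type monocytes thus lay below wild-type Folr2/Mrc1 macrophages, while in the TG-labelled library the monocyte gate had the higher level.

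The Ctsk/Acp5 gate was the exception, at 3100 CPM in TG-labelled and 5651 CPM in wild-type cells. It holds unlike cells in the 2 libraries. Ctsk, the cathepsin of bone-resorbing cells that names the gate, had 3800 CPM in its 351 TG-labelled cells and 132 CPM in its 135 wild-type cells. A ratio in this gate therefore compares different cells, and its levels are given only side by side.

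**Figure D3:**
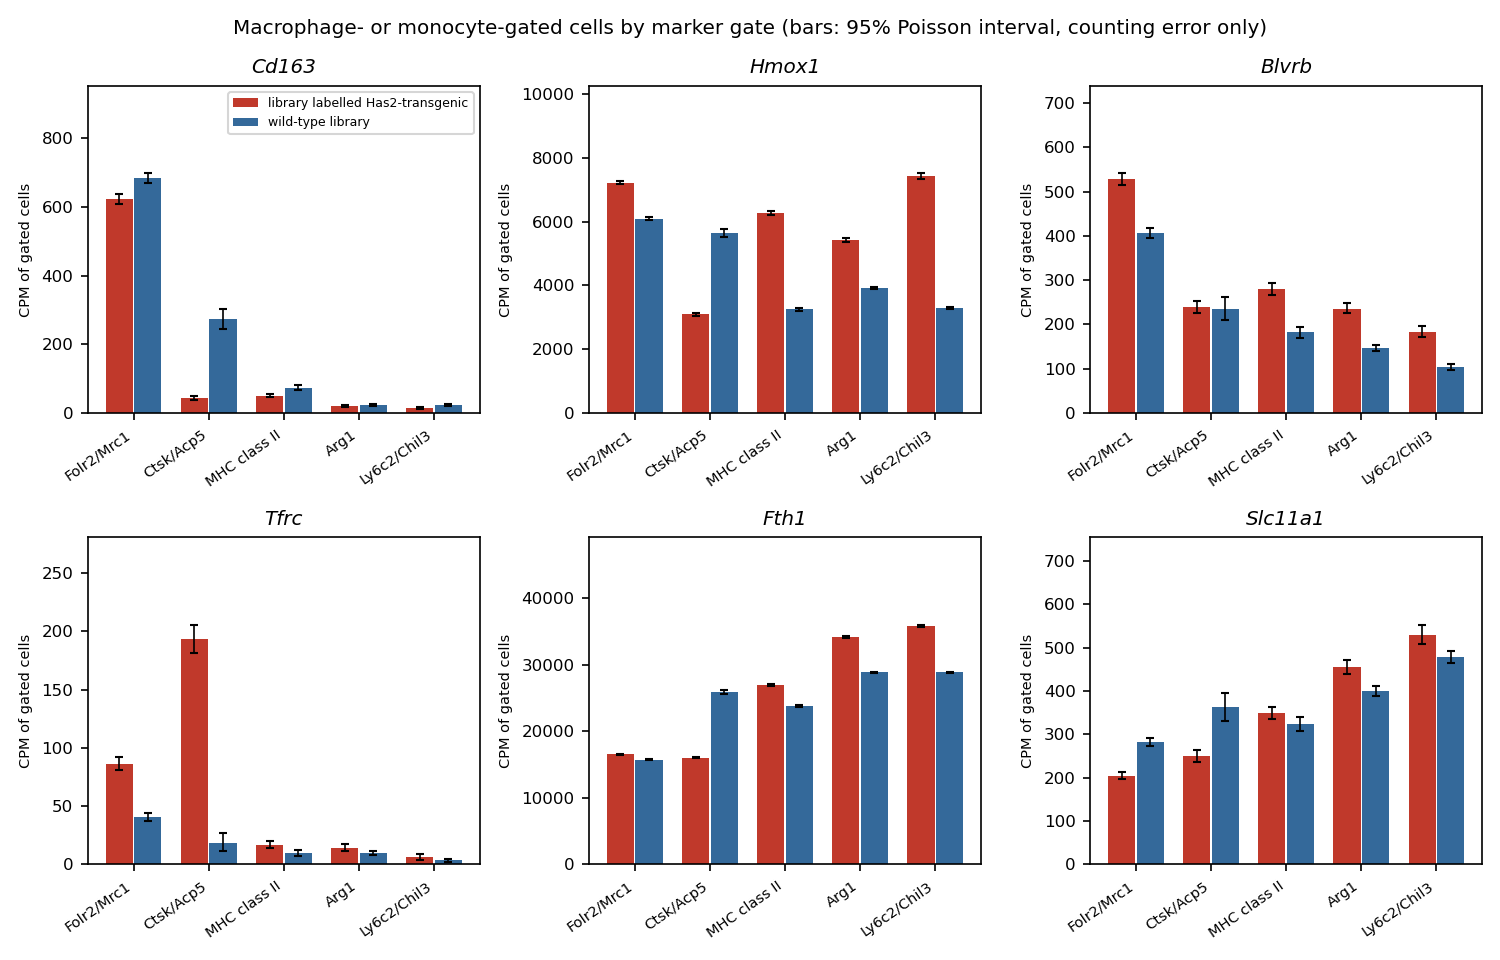
Level of 6 genes (y axis, CPM of the gated cells) in 5 marker gates of macrophages or monocytes (x axis) in the TG-labelled library (red, left) and the wild-type library (blue, right), with 95% Poisson intervals that cover counting error only. Cd163 stands at 624 CPM in TG-labelled and 683 CPM in wild-type Folr2/Mrc1 cells and far lower elsewhere, and Tfrc reaches 193 CPM in TG-labelled Ctsk/Acp5 cells against 18.1 CPM in the wild-type cells of that gate.

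Blvrb and Blvra both reduce biliverdin, and they differed between the libraries in different classes. Blvrb, which also acts as a flavin reductase, had 67.5 CPM in TG-labelled neutrophils (883 UMIs) and 30.02 CPM in wild-type neutrophils (726 UMIs), a ratio of 2.25 (2.04 to 2.48). In macrophages or monocytes it had 330 CPM in TG-labelled and 229 CPM in wild-type cells, a ratio of 1.44 (1.40 to 1.48). In fibroblasts the level was 89.7 CPM in TG-labelled and 88.8 CPM in wild-type cells, a ratio of 1.01 (0.973 to 1.05). Endothelial cells had 60.7 CPM in the TG-labelled and 47.7 CPM in the wild-type library, a ratio of 1.27 (1.06 to 1.52). Of these 4 classes only neutrophils had a Blvrb ratio past 1.5-fold. After thinning, 5.17% of TG-labelled and 2.12% of wild-type neutrophils had a Blvrb UMI, against 0 of 130 and 0 of 227 T cells. T cells had 3 UMIs in the TG-labelled and 6 in the wild-type library.

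Blvra had 91.9 CPM in TG-labelled and 81.3 CPM in wild-type macrophages or monocytes, a ratio of 1.13 (1.08 to 1.19). Endothelial cells had 30.5 CPM in the TG-labelled library (126 UMIs) and 47.1 CPM in the wild-type library (244 UMIs), a ratio of 0.647 (0.518 to 0.806). In fibroblasts the level was 13.8 CPM in TG-labelled and 19.4 CPM in wild-type cells, a ratio of 0.708. Blvra was lower in the TG-labelled library in both stromal classes, and only the endothelial ratio was past 1.5-fold. Neutrophils had the lowest level of the 5 classes, at 9.63 CPM in TG-labelled and 9.22 CPM in wild-type cells, a ratio of 1.04 (0.833 to 1.31), and the levels of endothelial and T cells overlapped within each library.

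Within neutrophils the Hmox1 and Blvrb ratios differed in size between the gates. The Retnlg gate, marked by genes of recently released neutrophils, held 11.4% of TG-labelled and 50.2% of wild-type neutrophils, and the Ccl3/Icam1 gate, marked by genes of activated tissue neutrophils, held 42.0% and 25.6%. In the Retnlg gate Hmox1 stood at 1506 CPM in TG-labelled and 796 CPM in wild-type cells, and in the Ccl3/Icam1 gate at 1762 CPM in TG-labelled and 1586 CPM in wild-type cells. Blvrb stood at 53.5 CPM in TG-labelled and 16.9 CPM in wild-type cells of the Retnlg gate, and at 47.3 and 40.2 CPM in the Ccl3/Icam1 gate. The ratios of Hmox1 and Blvrb were 1.89 and 3.16 in the Retnlg gate and 1.11 and 1.18 in the Ccl3/Icam1 gate, a difference between gates that was not tested. In the interferon gate they were 1.76 and 2.02. Neutrophils of no gate, 31.0% of the TG-labelled and 12.3% of the wild-type cells, had the highest levels of both genes in each library. Hmox1 stood there at 2276 CPM in TG-labelled and 1738 CPM in wild-type cells, a ratio of 1.31, and Blvrb at 99.2 and 58.6 CPM, a ratio of 1.69. With the same gate weights in both libraries the neutrophil ratio of Hmox1 was 1.39, below 1.5, and that of Blvrb 1.76.

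Fth1, the heavy chain that oxidises iron for storage, made up a large share of neutrophil RNA. Neutrophils had 64011 CPM in the TG-labelled library and 53786 CPM in the wild-type library, a ratio of 1.19 (1.19 to 1.19), and the median neutrophil had 136 UMIs in the TG-labelled library and 171 in the wild-type library. Macrophages or monocytes had 24456 CPM in TG-labelled and 23952 CPM in wild-type cells, a ratio of 1.02. The 2 levels in macrophages or monocytes differed by far less than 1.5-fold. Endothelial cells had 3622 CPM in TG-labelled and 2952 CPM in wild-type cells, a ratio of 1.23, and T cells 9850 CPM in TG-labelled and 6712 CPM in wild-type cells, a ratio of 1.47 (1.41 to 1.52).

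Fibroblasts had 6625 CPM of Fth1 in the TG-labelled library and 10719 CPM in the wild-type library, a ratio of 0.618 (0.616 to 0.620). Fibroblasts of the Il6 gate, marked by Il6 and neutrophil-attracting chemokines, had 11108 CPM in TG-labelled and 11588 CPM in wild-type cells, a ratio of 0.959. Fibroblasts of the myofibroblast gate had 4623 CPM in TG-labelled and 7373 CPM in wild-type cells, and those of the resting gate 6357 and 9459 CPM. The Il6 gate held 16.9% of TG-labelled and 45.1% of wild-type fibroblasts, and the myofibroblast gate 39.2% and 5.27%. With the same gate weights in both libraries the ratio was 0.822, inside 1.5-fold. In its 129 wild-type cells the myofibroblast gate had 661 CPM of the marker Postn, against 2313 CPM in its 1039 TG-labelled cells, so that gate too holds unlike cells.

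Ftl1, the light chain that helps the iron core form, differed by less than 1.5-fold in all 5 classes. Its level was 5362 CPM in TG-labelled and 5530 CPM in wild-type macrophages or monocytes, a ratio of 0.970 (0.964 to 0.975). Neutrophils had 2712 CPM in the TG-labelled library and 2850 CPM in the wild-type library, a ratio of 0.952. Its lowest ratio was 0.730 (0.602 to 0.881) in T cells, at 305 CPM in TG-labelled and 418 CPM in wild-type cells. Fibroblasts had 593 CPM in TG-labelled and 692 CPM in wild-type cells, a ratio of 0.857, and endothelial cells 588 and 619 CPM. Fth1 had a ratio above 1 and Ftl1 one below 1 in neutrophils, macrophages or monocytes, endothelial cells and T cells. In T cells the ratios were 1.47 and 0.730, and in endothelial cells the Ftl1 interval reached past 1 (0.901 to 1.002). Fibroblasts had both ratios below 1. In the Ccl3/Icam1 gate of neutrophils Fth1 had a ratio of 1.18 and Ftl1 one of 0.704 (0.690 to 0.718). Ftl1 has a near-identical copy in the files, Ftl1-ps1, with 2088 UMIs in the TG-labelled and 2612 in the wild-type library beside 295618 and 392069 of Ftl1. Reads that match both could have been dropped or split in the counting, so the Ftl1 levels are uncertain by an amount these counts do not give.

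Summed over all kept cells, Fth1 had 17451 CPM in the TG-labelled library and 22280 CPM in the wild-type library, a ratio of 0.783. Of the 5 compared classes only fibroblasts had a ratio below 1; in neutrophils, macrophages or monocytes, endothelial cells and T cells the ratio was above 1. Neutrophil UMIs, the richest in Fth1, came from 5542 TG-labelled and 6851 wild-type cells, and the TG-labelled cells were shallower. A whole-library level of these genes therefore mixes the class levels with the share of UMIs from each class, and class levels are the ones compared here.

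Slc40a1, the iron exporter ferroportin, was found almost wholly in neutrophils. They held 84.9% of its UMIs in the TG-labelled library and 92.4% in the wild-type library, at 196 CPM in TG-labelled (2561 UMIs) and 131 CPM in wild-type neutrophils (3158 UMIs). The ratio of 1.4996 (1.42 to 1.58) lay just under 1.5, and over the alternatives it ran from 1.48 to 1.67. After thinning to 1000 UMIs, 15.7% of TG-labelled (14.7 to 16.7%, exact binomial) and 11.3% of wild-type neutrophils (10.5 to 12.1%) had a Slc40a1 UMI, and without thinning 25.5% and 24.7%. In T cells no UMI was found, with the limits of 2.31% and 1.32% given above.

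The Slc40a1 level differed between the neutrophil gates in both libraries. The Retnlg gate had 260 CPM in TG-labelled and 146 CPM in wild-type cells, a ratio of 1.78 (1.59 to 1.99). Neutrophils of the interferon gate had 263 CPM in the TG-labelled library and 126 CPM in the wild-type library, a ratio of 2.09 (1.83 to 2.37). The Ccl3/Icam1 gate was the lowest in both, at 100.6 CPM in TG-labelled and 93.3 CPM in wild-type cells, a ratio of 1.08 (0.960 to 1.21). Neutrophils of no gate had 286 CPM in the TG-labelled library and 150 CPM in the wild-type library, a ratio of 1.91 (1.69 to 2.16). Since the Ccl3/Icam1 gate took a larger share of the TG-labelled neutrophils, equal gate weights gave a larger class ratio, 1.67, past 1.5-fold.

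**Figure D4:**
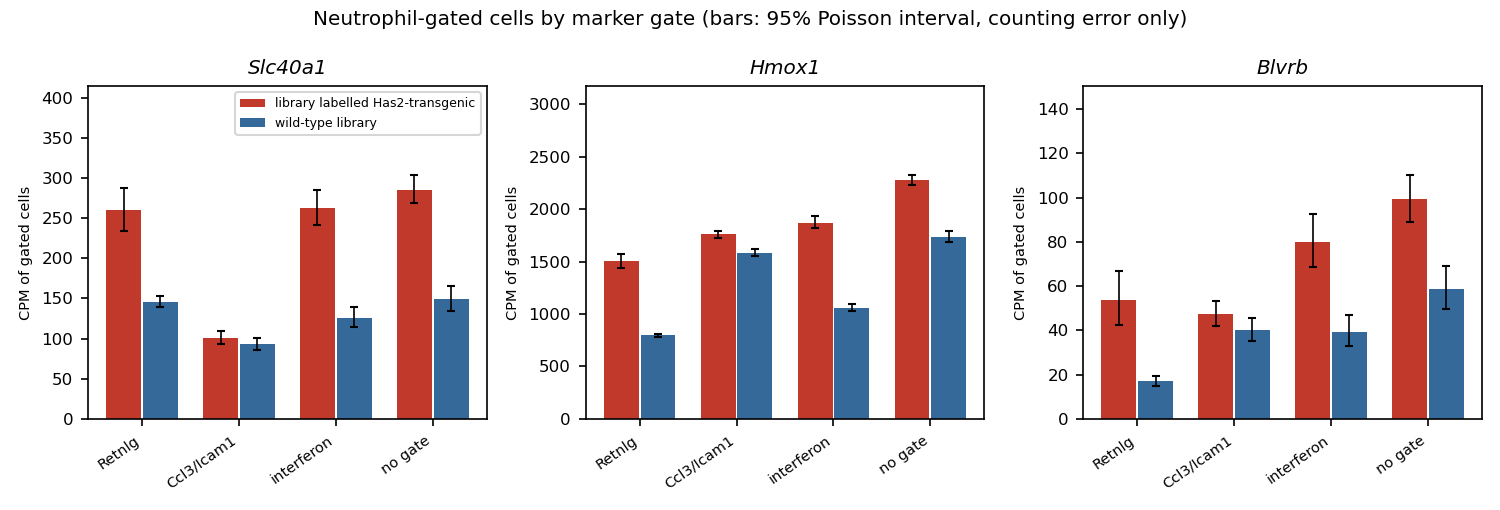
Level of Slc40a1, Hmox1 and Blvrb (y axis, CPM of the gated cells) in neutrophils of 3 marker gates and of no gate (x axis) in the TG-labelled library (red, left) and the wild-type library (blue, right), with 95% Poisson intervals that cover counting error only. In the Ccl3/Icam1 gate Slc40a1 stands at 100.6 CPM in TG-labelled and 93.3 CPM in wild-type cells, and in the Retnlg gate at 260 and 146 CPM.

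Ferroportin is known as the iron exporter of red-cell-recycling macrophages, and macrophages or monocytes of this skin had little of its transcript. The level was 6.22 CPM in TG-labelled (223 UMIs) and 1.58 CPM in wild-type cells (70 UMIs), a ratio of 3.94 (2.997 to 5.23). A UMI was found in 0.594% of thinned TG-labelled and 0.184% of thinned wild-type cells, both within the limits that the T cells allow. Those limits are set by the number of thinned T cells, 130 and 227, so they cannot tell whether these shares are expression. Neutrophil-panel RNA in macrophages or monocytes was 330 CPM in the TG-labelled and 353 CPM in the wild-type library. Per 1000 neutrophil-panel UMIs the TG-labelled macrophages or monocytes held 18.9 Slc40a1 UMIs (16.5 to 21.5) and the wild-type cells 4.47 (3.48 to 5.65), where neutrophils held 1.69 and 0.801. The Folr2/Mrc1 gate had 8.48 CPM in TG-labelled (96 UMIs) and 1.27 CPM in wild-type cells (18 UMIs).

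In fibroblasts Slc40a1 had 111 UMIs in the TG-labelled library (1.66 CPM) and 29 in the wild-type library (0.532 CPM), a ratio of 3.13 (2.06 to 4.89). At these counts the ratio was 1.44 under a looser gate, 1.98 with equal gate weights and 4.82 under a stricter gate. Endothelial cells had 8 UMIs in the TG-labelled and 4 in the wild-type library, too few to compare. In the wild-type library the intervals of macrophages or monocytes, endothelial cells and fibroblasts overlapped, and in the TG-labelled library those of endothelial cells and fibroblasts.

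Tfrc, the receptor for transferrin-bound iron, was the gene of the 9 whose ratio went most clearly in opposite directions between classes. Macrophages or monocytes had 63.0 CPM in the TG-labelled library (2261 UMIs) and 18.7 CPM in the wild-type library (828 UMIs), a ratio of 3.37 (3.11 to 3.66). Fibroblasts had 26.5 CPM in the TG-labelled library (1770 UMIs) and 46.4 CPM in the wild-type library (2529 UMIs), a ratio of 0.572 (0.538 to 0.608). Endothelial cells had 15.2 CPM in TG-labelled and 31.1 CPM in wild-type cells, a ratio of 0.490 (0.361 to 0.660). The difference in direction between classes was not tested. Neutrophils had the lowest level, at 8.10 CPM in TG-labelled and 6.78 CPM in wild-type cells, a ratio of 1.195 (0.927 to 1.54). Macrophages or monocytes held 44.3% of all Tfrc UMIs in the TG-labelled library and 20.0% in the wild-type library, and fibroblasts 34.7% and 61.1%.

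The macrophage Tfrc level rests on a minority of cells. A UMI was found in 19.1% of TG-labelled and 11.5% of wild-type cells, or 3.78% and 2.16% after thinning, where the ratio of the level was 1.74. Per-cell CPM averaged over cells gave 1.95, and leaving out the 5% of cells with the most UMIs gave 2.26. In T cells after thinning 1.54% of TG-labelled and 3.08% of wild-type cells had a Tfrc UMI; dividing T cells are known to carry the receptor, so they set no background here. The tenth of cells with the most Tfrc UMIs held 82.7% of them in the TG-labelled and 90.9% in the wild-type library.

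The Folr2/Mrc1 gate had 86.4 CPM of Tfrc in TG-labelled and 40.9 CPM in wild-type cells, a ratio of 2.11 (1.90 to 2.34). It held 43.3% of the Tfrc UMIs of the class in the TG-labelled library and 69.9% in the wild-type library. The Ctsk/Acp5 gate, at 193 CPM in TG-labelled and 18.1 CPM in wild-type cells, held 43.2% and 2.90%. A Tfrc UMI was found in 37.0% of its 351 TG-labelled cells, with up to 65 in a cell, and in 14.1% of its 135 wild-type cells, with up to 3. Tfrc is known to be high in dividing cells: without cells that had a UMI of the mitosis genes Mki67 or Top2a the gate had 127 CPM in 275 TG-labelled cells and 20.4 CPM in 126 wild-type cells, and the ratio of the whole class was 2.75.

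The monocyte gate had the lowest Tfrc level in both libraries, at 6.26 CPM in TG-labelled and 3.46 CPM in wild-type cells. Fth1 was highest in that gate in the TG-labelled library, at 35768 CPM, against 28820 CPM in its wild-type cells, where the Arg1 gate stood level with it at 28865 CPM. The Folr2/Mrc1 gate had 16550.3 CPM of Fth1 in TG-labelled and 15747 CPM in wild-type cells. The gates with the most Tfrc in the TG-labelled library, Folr2/Mrc1 and Ctsk/Acp5, were those with the least Fth1 in that library.

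Among fibroblasts each marker gate had a lower Tfrc level in the TG-labelled library, and cells of no gate had a higher one. The Il6 gate had 40.2 CPM in TG-labelled and 48.6 CPM in wild-type cells, a ratio of 0.828 (0.750 to 0.913), and the resting gate 23.0 and 34.9 CPM, a ratio of 0.660 (0.575 to 0.759). The myofibroblast gate, which holds unlike cells in each library, had 19.5 CPM in TG-labelled and 56.1 CPM in wild-type cells. Fibroblasts of no gate went the other way, at 71.3 CPM in TG-labelled and 46.8 CPM in wild-type cells, a ratio of 1.52 (1.22 to 1.90). These were the shallowest fibroblasts, with medians of 2771.5 UMIs in TG-labelled and 1461 UMIs in wild-type cells. Thinning brought the fibroblast ratio to 0.711 and equal gate weights to 0.673, both inside 1.5-fold.

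Slc11a1, the metal transporter of phagosomes, was a myeloid gene with small differences. Neutrophils had 1202 CPM in the TG-labelled library and 1029 CPM in the wild-type library, a ratio of 1.17 (1.14 to 1.19), and held 51.3% and 56.3% of its UMIs. Macrophages or monocytes had 329 CPM in TG-labelled and 371 CPM in wild-type cells, a ratio of 0.889 (0.868 to 0.910). Over the macrophage gates the level was highest in the Ly6c2/Chil3 gate, at 530 CPM in TG-labelled and 479 CPM in wild-type cells, and lowest in the Folr2/Mrc1 gate, at 204 and 283 CPM. The gate with the highest Cd163 level was thus the one with the lowest Slc11a1 level in both libraries.

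Fibroblasts had 15.4 CPM of Slc11a1 in the TG-labelled library (1027 UMIs) and 9.83 CPM in the wild-type library (536 UMIs), a ratio of 1.57 (1.41 to 1.74). Macrophage-panel RNA moved the same way in these cells, at 301 CPM in TG-labelled and 126 CPM in wild-type fibroblasts. Neutrophil-panel RNA did not, at 388 CPM in TG-labelled and 410 CPM in wild-type fibroblasts. The part of RNA from other cells in this ratio was not tested. Without cells that had a UMI of the macrophage genes C1qa, C1qb or C1qc the ratio was 1.76. It was 1.29 under a looser gate, 2.55 as per-cell CPM and 3.46 after thinning. After thinning 1.82% of TG-labelled and 0.597% of wild-type fibroblasts had a UMI. Both shares lie under the 2.31% and 1.32% that T cells allow for a gene without a UMI. Those limits are set by the number of thinned T cells, 130 and 227, so they cannot tell whether either share is expression. T cells had 12.2 CPM in the TG-labelled library (6 UMIs) and 16.9 CPM in the wild-type library (17 UMIs). Endothelial cells had 16.7 CPM in TG-labelled and 14.5 CPM in wild-type cells, a ratio of 1.15 (0.819 to 1.62).

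Cells with Cd163 differed from the other macrophages or monocytes in the same way in both libraries. The split used at least 1 Cd163 UMI in the full data, and levels were read from cells thinned to 1000 UMIs. It gave 822 TG-labelled cells with and 3388 without Cd163, and 1135 wild-type cells with and 3764 without. Blvrb had 568 CPM in TG-labelled cells with Cd163 and 267 CPM in those without, and 379 and 176 CPM in wild-type cells. Tfrc had 99.8 CPM with and 26.9 CPM without Cd163 in TG-labelled cells, and 49.3 and 15.9 CPM in wild-type cells. Cells with a UMI of the haemoglobin receptor thus had higher Blvrb and Tfrc levels in each library. The Folr2/Mrc1 gate, which held 88.7% and 87.7% of the Cd163 UMIs, also had the highest Blvrb level of the gates. It stood at 528 CPM in TG-labelled and 407 CPM in wild-type cells. The split was not made within that gate, so it is not separate from the contrast between gates.

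Hmox1 had 8114 CPM with and 6009 CPM without Cd163 in TG-labelled cells, and 6749 and 4109 CPM in wild-type cells. Fth1 and Slc11a1 ran the other way: Fth1 had 18854 CPM with and 29331 CPM without Cd163 in TG-labelled cells, and 16198 and 26904 CPM in wild-type cells. Slc11a1 had 215 and 389 CPM in TG-labelled cells, and 256 and 405 CPM in wild-type cells. Blvra had 114 and 70.0 CPM in TG-labelled cells, and 119 and 60.8 CPM in wild-type cells, and Ftl1 6422 and 5486 CPM in TG-labelled and 6517 and 5700 CPM in wild-type cells. Median depth before thinning was 9465 UMIs with and 7052 without Cd163 in TG-labelled cells, and 9108 and 8440 in wild-type cells, so cells with a Cd163 UMI were also the deeper ones.

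Beyond the 9 genes, 52 other genes of haem and iron handling were listed in 8 groups by function, of which 51 were in the files. In macrophages or monocytes 6 of 41 measured genes were at least 1.5-fold higher and 2 lower in TG-labelled cells, against 12.6% higher and 3.92% lower over all genes. The higher genes included Cp, the copper ferroxidase ceruloplasmin that oxidises exported iron, at 11.8 CPM in TG-labelled and 3.56 CPM in wild-type cells, a ratio of 3.31. They also included Spic, the transcription factor of red-pulp macrophages in the spleen, at 34.1 CPM in TG-labelled and 16.4 CPM in wild-type cells, a ratio of 2.09. Hebp1, a haem-binding protein, had a ratio of 1.99, the metalloreductase Steap4 one of 2.43, the haem synthesis enzyme Alad one of 1.89, and the metal importer Slc39a8 one of 1.79. Lcn2, which binds bacterial iron carriers, had 10.1 CPM in TG-labelled and 19.9 CPM in wild-type cells, a ratio of 0.507, and Hp, haptoglobin, had a ratio of 0.664.

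In fibroblasts 5 of 45 measured genes were higher and 5 lower, against 13.8% and 7% over all genes. Hp, the ligand that carries haemoglobin to CD163, had 675 CPM in TG-labelled (45012 UMIs) and 59.9 CPM in wild-type fibroblasts (3263 UMIs), a ratio of 11.3 (10.9 to 11.7). Tfr2, a second transferrin receptor best known from liver, had 136 UMIs in TG-labelled (2.04 CPM) and 17 in wild-type fibroblasts (0.312 CPM). Its ratio was 6.54 (3.94 to 11.6). Slc22a17, a receptor for lipocalin 2, had a ratio of 2.74, and its ligand Lcn2 had 342 CPM in TG-labelled and 759 CPM in wild-type cells, a ratio of 0.450. Cp, higher in TG-labelled macrophages, was lower in TG-labelled fibroblasts, at 205 CPM against 355 CPM in wild-type cells, a ratio of 0.577. Hamp, the iron hormone hepcidin that removes ferroportin from the surface, had 30 UMIs in TG-labelled (0.450 CPM) and 169 in wild-type fibroblasts (3.10 CPM). Its ratio was 0.145 (0.0950 to 0.215). Both Hamp and Tfr2 are low in fibroblasts, and how their UMIs spread over cells was not examined. Ppox, of haem synthesis, had a ratio of 1.55. The ferrireductase Steap3 had a ratio of 1.997, Steap4 one of 0.522 and Slc39a8 one of 0.482.

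Neutrophils had 2 of 28 measured genes higher and 2 lower, against 8.22% and 11.4% over all genes. Ltf, the iron-binding granule protein lactoferrin, had a ratio of 2.18 and Keap1, the inhibitor of the Hmox1 activator NRF2, one of 1.81. Ireb2, an iron regulatory protein, had a ratio of 0.642. In endothelial cells 4 of 33 were higher and 0 lower, against 8.73% and 4.64%: Cp at 94.3 CPM in TG-labelled and 19.9 CPM in wild-type cells, a ratio of 4.75, the haem transporter Slc48a1 at 1.72, Bach1, the haem-sensing repressor of Hmox1, at 1.65, and the mitochondrial iron importer Slc25a28 at 1.57. In T cells 4 genes were measured and 0 were past the fold in either direction, against 6.61% and 8.03%. The log2 medians over the measured listed genes were 0.23 in macrophages or monocytes, −0.17 in fibroblasts, 0.10 in neutrophils, 0.08 in endothelial cells and 0.06 in T cells, beside the medians over all genes given above.

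**Figure D5:**
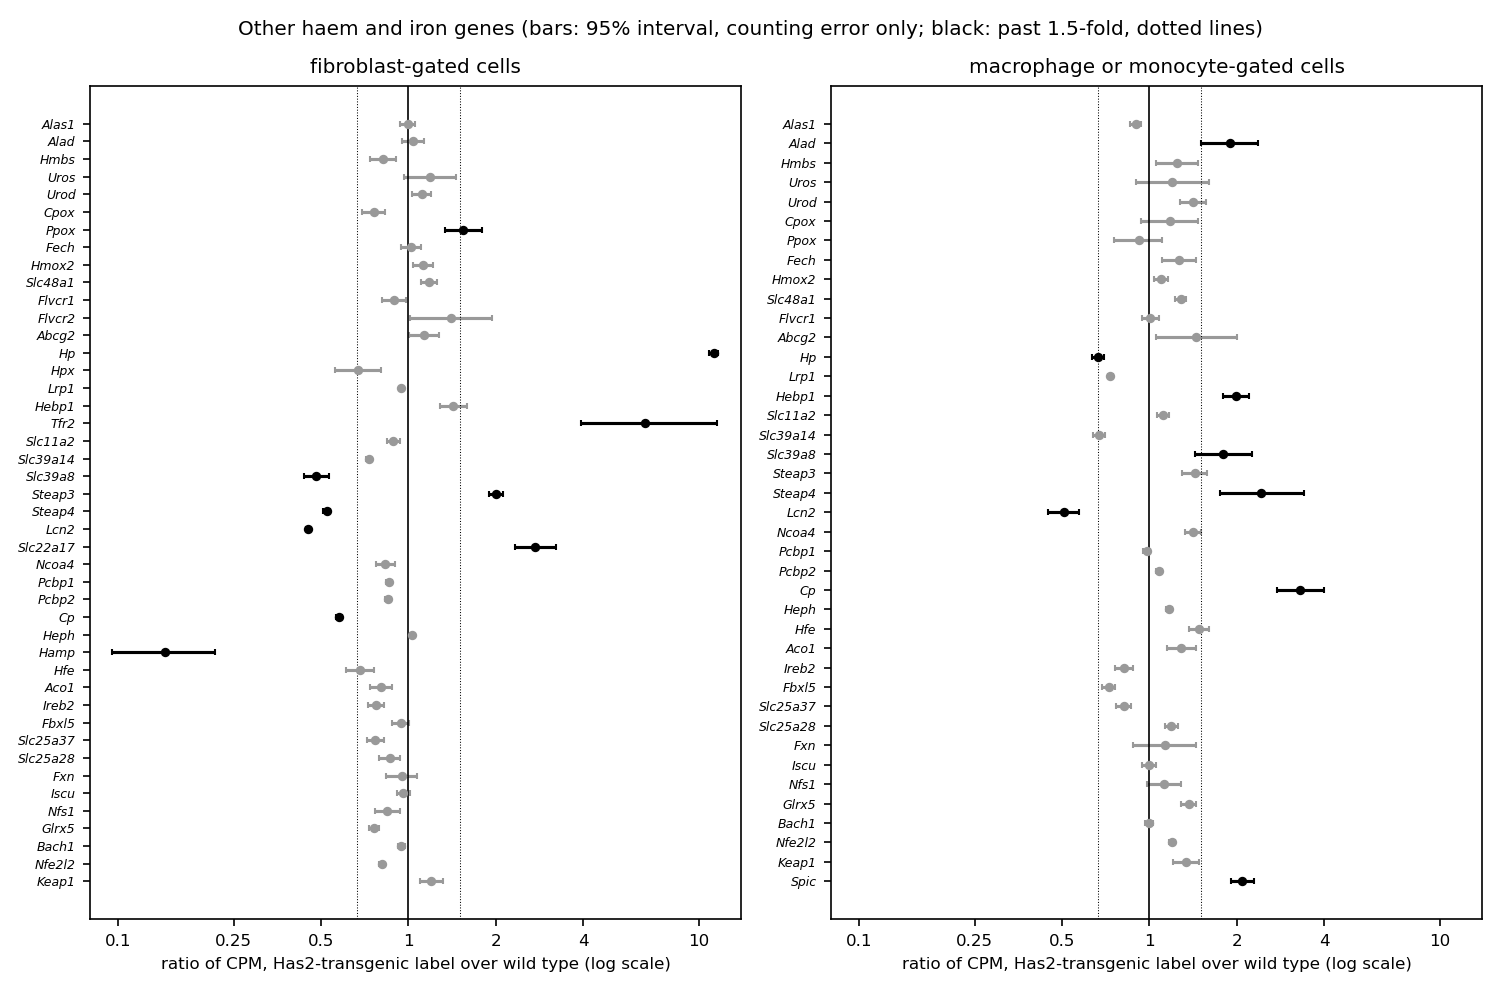
Ratio of CPM, TG-labelled over wild type (x axis, log scale), of the other haem and iron genes with at least 100 UMIs, 1 gene left out, in fibroblasts (left) and macrophages or monocytes (right), with 95% intervals that cover counting error only; black points are past 1.5-fold (dotted lines). Hp lies at 11.3 in fibroblasts and 0.664 in macrophages or monocytes, and Cp at 0.577 in fibroblasts and 3.31 in macrophages or monocytes.

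Genes with the most similar pattern to each of the 9 were ranked by Pearson's r of log2(CPM + 10) over 10 points, the 5 classes in each library, among 6251 genes. The points share libraries and classes, so r is a description of where genes lie. Cd163 lay closest to Kcnk13 (r = 0.997), Cbr2 (0.996) and Ms4a8a (0.995). Slc11a1 lay closest to Clec4e (0.998), Igsf6 (0.997) and Ptafr (0.996). Slc40a1 lay closest to 9830107B12Rik (0.995), Themis2 (0.995) and Gm57445 (0.995).

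For Hmox1 the closest were the copper importer Slc31a1 (0.975), Tns3 (0.966) and Zfp516 (0.959). Blvrb lay closest to the lysosomal genes Lamp1 (0.976) and Ctsl (0.969), and to Txnrd1 (0.965), and Blvra to Stam2 (0.968). The ferritin chains had different neighbours: Ptprj (0.976) and Scarb2 (0.976), which encodes a lysosomal membrane protein, for Fth1, and Gm36161 (0.989), Clec4a2 (0.988) and Atp6v1b2 (0.984), a subunit of the lysosomal proton pump, for Ftl1. Tfrc had the weakest likeness, with Mat2a (0.868) as its closest gene.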

How the data were processed

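The authors deposited, for each of the 2 libraries, an unnormalised matrix of UMI counts, with genes and cell barcodes as its margins. Per the submitters' processing notes it was made with Cell Ranger 9.0.1 on GRCm39. Doublet removal is not given in the sources used here.

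Barcodes with under 200 genes, or with over 15% of UMIs from mitochondrial genes, were dropped. A cell's score for a class was the mean of log1p(UMIs per 10000) over its panel. The highest-scoring of 20 panels (16 classes) named the cell if at least 3 markers had a UMI and the score was 1.5 times that of any other class. Otherwise the cell stayed ungated, as did 7.95% of cells in the TG-labelled and 10.0% in the wild-type library. No doublet caller was run. Barcodes scoring close for another class stayed ungated, and an alternative dropped the 5% deepest cells. Gates within a class took the highest standardised marker score, if above the mean and with at least 2 markers detected.

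UMIs were summed per class and library. Levels have exact Poisson and shares exact binomial (Clopper-Pearson) 95% intervals, and ratios have exact conditional ones. PCR and animal variation are not in them. Ratios need 100 UMIs over both libraries and classes 100 cells in each, so dendritic cells (55 TG-labelled) were not compared. Shares were read at 1000 UMIs per cell; 304 TG-labelled and 301 wild-type neutrophils were shallower and left out, and 90 and 97 macrophages or monocytes. Named genes are the 9, Has2, the pathway genes with the largest ratio past 1.5-fold each way per list and class, with the other pathway genes past it named after their values were seen, and the 3 most alike per gene. The 9 genes and all lists were chosen with earlier results of these data known. The interval and ratio code was tested on simulated data. Python 3.11.15, numpy 2.4.6, pandas 2.3.3 and scipy 1.17.1 were used. The sources pair no 2 samples. A pathway gene among those listed is not reported here by name.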

Additional observations from a re-analysis of the deposited data

Results flagged for a closer look

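Hmox1 and Tfrc went in opposite directions between cell classes, with ratios past 1.5-fold each way; the difference between classes was not tested. The Hmox1 ratio, TG-labelled over wild type, was 1.68 in neutrophils, 1.55 in fibroblasts and 1.55 in endothelial cells, against 0.252 in T cells, where a single wild-type barcode held 89.2% of the wild-type UMIs and the ratio without the top cells was 1.37. The Tfrc ratio was 3.37 in macrophages or monocytes, against 0.572 in fibroblasts and 0.490 in endothelial cells.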

How the results depend on the processing

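Of the 14 ratios past 1.5-fold, 13 kept their direction under every alternative that gave a value. The exception was Hmox1 in T cells, which reversed to 1.28 with per-cell CPM, 2.04 with thinning, 2.28 under the looser gate and 1.37 without the top cells. There were 12 listed alternatives and 2 added after seeing the data (without dividing cells, and without cells with a C1q UMI). The 2-fold threshold and the dropped UMI minimum change only which ratios are called, so they could not change a direction. The macrophage Tfrc ratio ranged from 1.74 to 3.59, that of macrophage Slc40a1 from 3.11 to 4.66, neutrophil Blvrb from 1.76 to 2.60 and neutrophil Cd163 from 0.0760 to 0.395, all past 1.5-fold. Neutrophil Hmox1 ranged from 1.39 to 1.80, fibroblast Fth1 from 0.596 to 0.822, fibroblast Hmox1 from 1.47 to 1.79, fibroblast Slc11a1 from 1.29 to 3.46, fibroblast Slc40a1 from 1.44 to 4.82 and fibroblast Tfrc from 0.559 to 0.711. Endothelial Hmox1 ranged from 1.504 to 1.95, Blvra from 0.535 to 0.662 and Tfrc from 0.336 to 0.4998. With the threshold at 2-fold, 7 of the 14 were past it, where 3.38% (endothelial cells) to 8.09% (fibroblasts) of all measured genes of a class were. The count of genes past the fold in T cells, 1 of 3, became 2 with centring, the stricter gate, the looser gate or no UMI minimum, and 0 with per-cell CPM, without the 5% deepest cells, without the top cells or without dividing cells. Over all genes of T cells the share past it was 13.8% with centring and 37.2% with no UMI minimum. Under the stricter and looser gates it was 14.6% and 14.3%. It was 15.4% without the 5% deepest cells and 15.5% without dividing cells. No share over all genes is given for per-cell CPM or without the top cells, so the counts there have no background beside them. In fibroblasts the count of 5 became 3 under the looser gate or equal gate weights and 1 at 2-fold. The share over all genes was 20.5% under the looser gate and 8.09% at 2-fold. None is given for equal gate weights, so the count of 3 there has no background beside it. In endothelial cells the count of 3 became 5 with no UMI minimum and 1 at 2-fold, against 31.2% and 3.38% of all genes. The causes were not tested. The dendritic comparison was not run, for want of cells. No paired analysis was possible because there is 1 library per genotype. The 2.31% and 1.32% that T cells allow are set by the 130 and 227 thinned T cells, so smaller shares cannot be judged against them.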

Other observations

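Classes with too few cells for a comparison still held some of these genes, and their levels are given as values only. Keratinocytes had 63.0 CPM of Tfrc in 197 TG-labelled cells and 59.1 CPM in 21 wild-type cells (37.5 to 88.7), among the highest class levels of this gene. Fth1 in the same cells had 1682 CPM in the TG-labelled and 6189 CPM in the wild-type library. Dendritic cells had 975 CPM of Hmox1 in 55 TG-labelled cells and 279 CPM in 199 wild-type cells. Slc40a1 had 0 UMIs in the 55 TG-labelled dendritic cells and 1 UMI in the 199 wild-type cells.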
